A study of Mus musculus with 6 samples.

Results

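The 10 genes described here belong to the p53 and BCL2 pathways and were followed across dendritic cells (DCs) sorted from the mouse thymus: Cdkn1a, Pmaip1, Bbc3, Bax and Mdm2, which are transcriptional targets of p53, and Bcl2, Bcl2l1, Mcl1, Bcl2a1b and Bcl2l11 of the BCL2 family. They were taken by gene symbol from 23420 symbols, and all 10 were present in every file and passed the filter on low counts. The transcription factor p53 is stabilised by DNA damage and other stress, and its targets halt the cell cycle, trigger apoptosis or, through Mdm2, return p53 to low levels. Apoptosis through mitochondria is set by the BCL2 family: pro-survival proteins (BCL2, BCL-XL, MCL1, A1) hold back the pore former BAX, and BH3-only proteins (BIM, PUMA, NOXA) bind and neutralise the pro-survival proteins. In DCs this balance limits lifespan, and plasmacytoid DCs are known to rely on BCL2 more than conventional DCs do.

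RNA was sequenced in 6 libraries from wild-type mice, 2 per group. YG+ pDCs were plasmacytoid DCs (pDCs, gated as CD11c low B220+) carrying yellow-green fluorescent microspheres (YG). They came from mice inoculated under the skin with MC38 colon carcinoma cells 12 days before the microspheres were injected into the tumour, and were sorted 2 days later. PBS pDCs had the same gate and PBS Sirpa+ DCs, a conventional subset, were CD11c high Sirpa+, both from mice labelled PBS for 2 weeks. Tumour, injection and the YG gate all separate YG+ pDCs from PBS pDCs and cannot be told apart. The sources used here give neither strain nor age, nor whether a group's 2 libraries are from different mice. The p-values therefore reflect spread among these samples alone, and that spread may be technical.

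Gene totals ran from 177844 to 713966 reads, which was 0.842% to 3.36% of uniquely placed reads. PBS pDC replicate 1 had the lowest total and stood apart, with a correlation of log2 levels across genes of 0.726 with its partner, against 0.934 between YG+ pDC libraries and 0.855 between Sirpa+ DC libraries. Levels are normalised read counts (CPM, counts scaled to a common library size), and 3 counts, the upper limit that a count of 0 allows, equal 19.1 CPM in that library and 4.21 to 12.7 CPM in the others. This limit covers counting error only. Siglech, a pDC lectin, was 670 to 1059 CPM in pDC libraries and 43.9 to 46.5 CPM in Sirpa+ DC libraries, and Sirpa was 198 to 392 CPM in pDC libraries and 575 to 748 CPM in Sirpa+ DC libraries. Tsix, which lies opposite Xist, had 2.70 to 20.5 times its counts, and the sources used here name no strand setting, so the strand that each count stands for is uncertain. Exons of the opposite strand covered 7.68% of the exon length of Cdkn1a and 6.09% of that of Bcl2, and none of the other members. On the same strand, exons of Gm45808 overlapped those of Bax and exons of Gm29094 those of Bcl2a1b.

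Bcl2a1b belongs to a cluster of near-identical genes that encode A1, so its sequence bears on how far its count can be trusted. Over 516 coding bases Bcl2a1b differed from Bcl2a1a at 11 positions (97.9% identity) and from Bcl2a1d at 6 (98.8%). The first 60 coding bases of the 3 genes are shown 5′ to 3′ from the GENCODE M21 transcripts, on GRCm38, with the 6 positions at which they are not all alike in capitals.
Bcl2a1b, chr9:89199360-89199419, plus strand: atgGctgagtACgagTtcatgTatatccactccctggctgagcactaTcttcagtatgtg
Bcl2a1a, chr9:88957051-88957110, plus strand: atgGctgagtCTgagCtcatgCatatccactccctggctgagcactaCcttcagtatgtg
Bcl2a1d, chr9:88731660-88731719, minus strand: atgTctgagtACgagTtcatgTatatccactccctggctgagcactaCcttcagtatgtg
Of all stretches of 50 bases in the Bcl2a1b transcript, 42.4% occurred in no other Bcl2a1 transcript, and of stretches of 100 bases 68.9%. Reads from the remaining stretches cannot be assigned to 1 gene by sequence, and no source used here states the read length. The summed count of Bcl2a1a, Bcl2a1b, Bcl2a1c and Bcl2a1d is therefore given beside Bcl2a1b.

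Cdkn1a, which encodes the cyclin-dependent kinase inhibitor p21, was the member that differed most between groups. The gene lies at chr17:29090976-29100727 on the plus strand (GRCm38, GENCODE M21). It was 326 and 359 CPM in Sirpa+ DCs (77 and 180 counts), 57.6 and 48.3 CPM in YG+ pDCs (41 and 27 counts), and 0 and 23.1 CPM in PBS pDCs (0 and 10 counts). The 3 groups did not overlap, and every pDC library lay far under both Sirpa+ DC libraries. PBS pDCs were lower than Sirpa+ DCs by a log2 fold change of -4.44 ± 0.66 (SE; edgeR quasi-likelihood adjusted p = 0.00217), and -3.87 (adjusted p = 1.39e-04) without PBS pDC replicate 1. YG+ pDCs were lower than Sirpa+ DCs by -2.68 ± 0.53 (adjusted p = 0.0132), a call that was lost when any 1 of those 4 libraries was left out (adjusted p from 0.0612 to 0.115). Between YG+ and PBS pDCs the log2 fold change was 1.75 ± 0.68 (adjusted p = 0.364), or 1.18 without PBS pDC replicate 1.

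A Cdkn1a promoter window is shown because p53 is known to act on this gene. It is the RefSeq window at chr17:29090729-29091028 (GRCm38.p6, plus strand), from 250 bases before its start to 50 after, 5′ to 3′. Matches to the p53 decamer are in capitals. The decamer reads alike on both strands and is only a part of the full consensus p53 element. The window was chosen for its matches, and the other Cdkn1a window searched, chr17:29093519-29093818, held 0.
Cdkn1a promoter: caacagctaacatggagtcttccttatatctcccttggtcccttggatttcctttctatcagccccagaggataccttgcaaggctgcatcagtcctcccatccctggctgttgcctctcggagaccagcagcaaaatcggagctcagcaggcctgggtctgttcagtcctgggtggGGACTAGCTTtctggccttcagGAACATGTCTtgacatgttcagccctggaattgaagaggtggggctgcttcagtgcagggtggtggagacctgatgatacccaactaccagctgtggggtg
The 2 matches began 73 and 51 bases before the start. Matches were searched on both strands in the 15 windows given for 9 of the members, and 3 of these windows (1 each of Cdkn1a, Bax and Mdm2) held at least 1, against 8.36% of all 32851 windows of 300 bases. No window of Pmaip1 was searched.

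Pmaip1, which encodes the BH3-only protein NOXA, a partner of MCL1 and A1, followed the same order of groups at higher levels in pDCs. It was 228 and 233 CPM in Sirpa+ DC libraries, 177 and 138 CPM in YG+ pDC libraries and 38.3 and 78.7 CPM in PBS pDC libraries, the last resting on 6 and 34 counts. The 3 groups did not overlap. PBS pDCs were lower than Sirpa+ DCs by a log2 fold change of -1.88 ± 0.46 (adjusted p = 0.0244), and by -1.54 (adjusted p = 0.0268) without PBS pDC replicate 1. The call was lost without Sirpa+ DC replicate 1 (adjusted p = 0.105) or replicate 2 (0.134). YG+ pDCs differed from Sirpa+ DCs by -0.55 ± 0.42 (adjusted p = 0.474) and from PBS pDCs by 1.33 ± 0.46 (adjusted p = 0.321).

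The other p53 targets passed the test in no comparison. Bax, the pore former, was 71.9 and 73.8 CPM in Sirpa+ DC libraries and 37.0 to 47.8 CPM in the 4 pDC libraries, with no overlap between the subsets, and YG+ and PBS pDC libraries overlapped. Mdm2, the ubiquitin ligase that degrades p53, was 131 and 76.9 CPM in YG+ pDC libraries, 51 and 71.7 CPM in PBS pDC libraries and 93.1 and 116 CPM in Sirpa+ DC libraries. YG+ pDC and Sirpa+ DC libraries overlapped for Mdm2 and both lay above the PBS pDC libraries. The nearest YG+ and PBS pDC libraries were close, at 76.9 and 71.7 CPM. Bbc3, which encodes the BH3-only protein PUMA, was between 6.38 and 27.8 CPM in every library on 1 to 14 counts, and all groups overlapped. Trp53 itself was 91.3 and 57.3 CPM in YG+ pDC libraries, 31.9 and 87.9 CPM in PBS pDC libraries and 55.0 and 39.9 CPM in Sirpa+ DC libraries, and its adjusted p was at least 0.481 in the 3 comparisons.

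**Figure D1:**
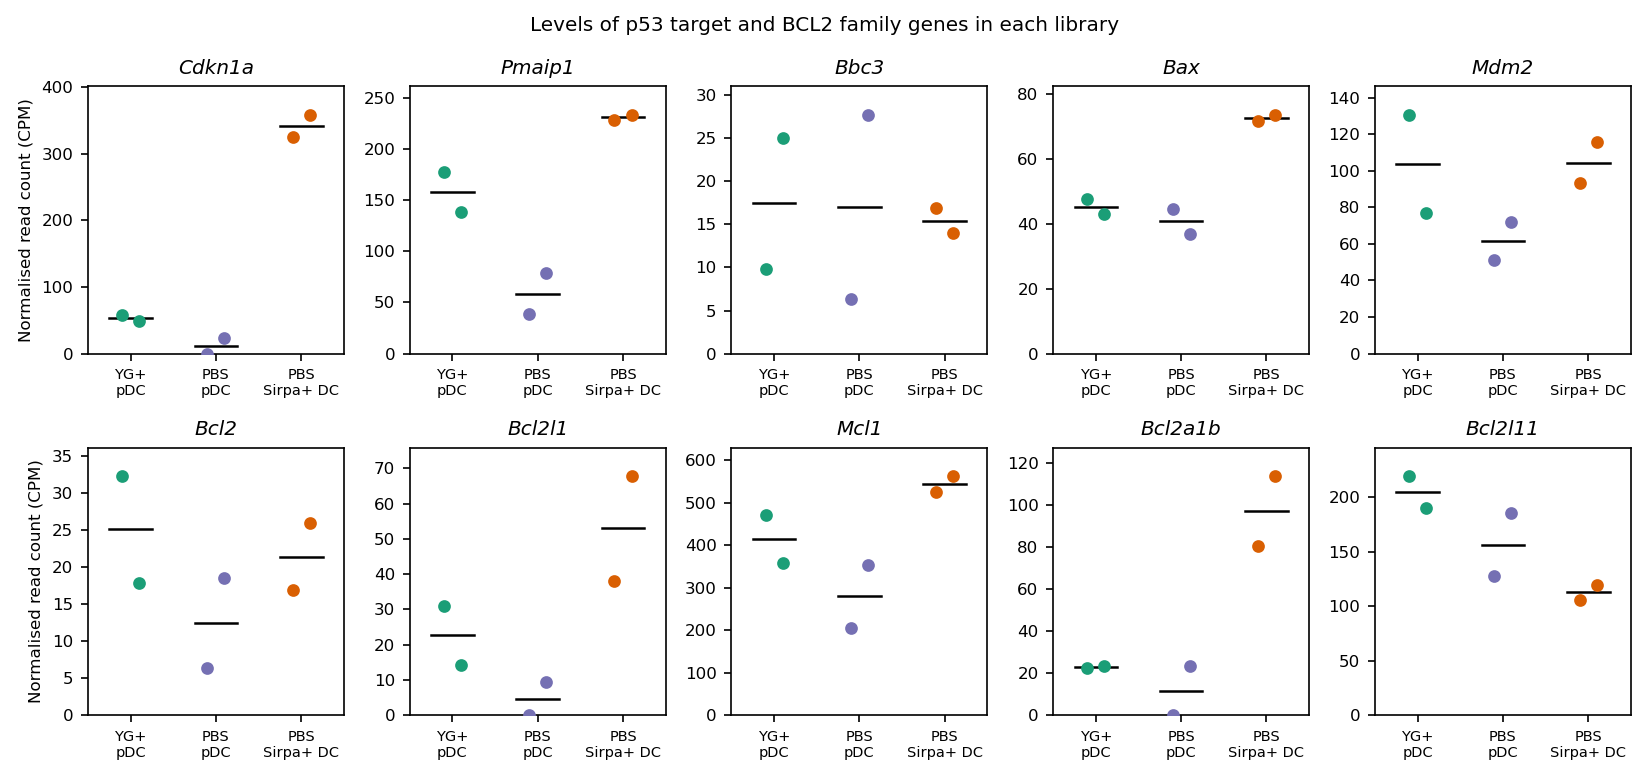
Normalised read count (CPM, vertical axes from 0) of each of the 10 genes, with 1 point per library and a line at the mean of each group of 2 libraries (Sirpa+ DCs and the YG+ and PBS groups of pDCs). Cdkn1a is 326 and 359 CPM in Sirpa+ DCs against at most 57.6 CPM in pDC libraries, whereas Bbc3 overlaps in all groups.

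Among the pro-survival genes, Bcl2a1b and Bcl2l1 were higher in Sirpa+ DCs than in PBS pDCs. Bcl2a1b was 80.4 and 114 CPM in Sirpa+ DC libraries, 22.5 and 23.3 CPM in YG+ pDC libraries, and 0 and 23.1 CPM in PBS pDC libraries. Both Sirpa+ DC libraries were above every pDC library, and the pDC groups overlapped. The log2 fold change of PBS pDCs against Sirpa+ DCs was -2.65 ± 0.71 (adjusted p = 0.0344), and -2.08 (adjusted p = 0.0229) without PBS pDC replicate 1. It was lost without Sirpa+ DC replicate 1 (adjusted p = 0.0948) or replicate 2 (0.223). The 4 Bcl2a1 genes together, a sum taken after the data were seen, came to 224 and 191 CPM in Sirpa+ DC libraries, 46.4 and 42.9 CPM in YG+ pDC libraries and 6.38 and 27.8 CPM in PBS pDC libraries. For this sum PBS pDCs were lower than Sirpa+ DCs by -3.32 (adjusted p = 0.00380) and YG+ pDCs by -2.20 (adjusted p = 0.0162), whereas for Bcl2a1b alone the YG+ pDC value of -2.09 ± 0.61 did not pass (adjusted p = 0.0639, and 0.00274 without PBS pDC replicate 1).

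Bcl2l1, which encodes BCL-XL and lies at chr2:152780668-152831728 on the minus strand, was 38.1 and 67.8 CPM in Sirpa+ DC libraries, 30.9 and 14.3 CPM in YG+ pDC libraries and 0 and 9.26 CPM in PBS pDC libraries, on 34 counts or fewer in each. The groups did not overlap in these values, and the nearest libraries of YG+ pDCs and Sirpa+ DCs were 30.9 and 38.1 CPM. The 0 in PBS pDC replicate 1 allows up to 19.1 CPM, above the 14.3 CPM of YG+ pDC replicate 2. PBS pDCs were lower than Sirpa+ DCs by a log2 fold change of -3.03 ± 0.86 (adjusted p = 0.0442), or -2.55 (adjusted p = 0.0498) without PBS pDC replicate 1. This was the weakest call, lost with DESeq2 (adjusted p = 0.0601) and without Sirpa+ DC replicate 1 (0.0929) or replicate 2 (0.332).

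Mcl1, which encodes the short-lived protein MCL1 and lies at chr3:95658788-95663176 on the plus strand, had the most counts of the 10 genes. It was 525 and 562 CPM in Sirpa+ DC libraries, 472 and 358 CPM in YG+ pDC libraries and 204 and 354 CPM in PBS pDC libraries. Sirpa+ DC libraries were above all pDC libraries, while the lower YG+ pDC library and the higher PBS pDC library were nearly level. No comparison passed, the nearest being PBS pDCs against Sirpa+ DCs at -0.94 ± 0.44 (adjusted p = 0.217, and 0.0457 without PBS pDC replicate 2). Bcl2 was 6.38 to 32.3 CPM over all libraries on 1 to 23 counts, all groups overlapped, and no difference passed the test. Its log2 fold change was -0.62 ± 0.78 in PBS pDCs against Sirpa+ DCs and 0.80 ± 0.73 in YG+ against PBS pDCs.

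Bcl2l11, which encodes BIM, the BH3-only protein that binds all pro-survival members, lies at chr2:128126038-128162547 on the plus strand and was higher in pDCs than in Sirpa+ DCs in every library, though no difference passed. It was 219 and 189.7 CPM in YG+ pDC libraries, 128 and 185 CPM in PBS pDC libraries and 106 and 119.6 CPM in Sirpa+ DC libraries. As in most members the YG+ pDC libraries lay above the PBS pDC libraries, and the Sirpa+ DC libraries were here the lowest. The nearest YG+ and PBS pDC libraries, at 189.7 and 185 CPM, were nearly level. The log2 fold changes were 0.49 ± 0.42 in PBS pDCs (adjusted p = 0.538) and 0.85 ± 0.41 in YG+ pDCs (adjusted p = 0.242), each against Sirpa+ DCs.

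The ratio of Bcl2l11 to Mcl1 counts within a library, which needs no scaling between libraries, was looked at after the values were seen and is given with no test. There were 0.464 and 0.53 Bcl2l11 counts per Mcl1 count in YG+ pDCs, 0.625 and 0.523 in PBS pDCs, and 0.202 and 0.213 in Sirpa+ DCs. The 95% exact binomial (Clopper-Pearson) intervals, which cover counting error only, reached down to 0.339 in the pDC libraries and up to 0.312 in the Sirpa+ DC libraries. Pmaip1 counts per Mcl1 count went the other way, at 0.435 and 0.415 in Sirpa+ DCs. They were 0.375 and 0.385 in YG+ pDCs and 0.188 and 0.222 in PBS pDCs, also given with no test. Their intervals overlapped between Sirpa+ DCs and YG+ pDCs. For Bcl2l11 against Bcl2, the ratio was 6.78 and 10.6 in YG+ pDCs, 20 and 10 in PBS pDCs and 6.25 and 4.62 in Sirpa+ DCs, with wide intervals because Bcl2 had as little as 1 count. Bcl2l1 had 0.957 and 0.8 counts per Bcl2 count in YG+ pDCs, 0 and 0.5 in PBS pDCs, and 2.25 and 2.62 in Sirpa+ DCs. Mcl1 had 14.6 and 20 in YG+ pDCs, 32 and 19.1 in PBS pDCs, and 31 and 21.7 in Sirpa+ DCs.

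**Figure D2:**
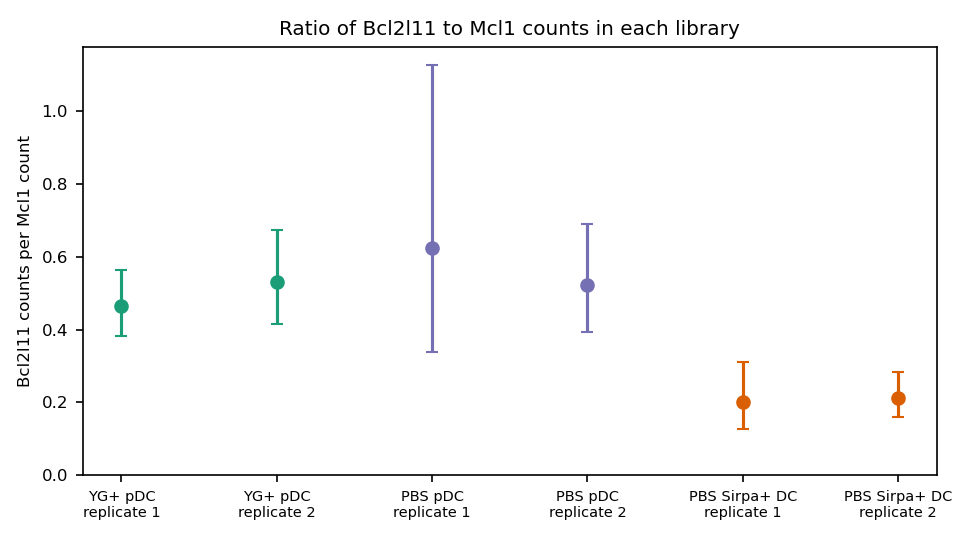
Bcl2l11 counts per Mcl1 count in each of the 6 libraries (vertical axis from 0), with 95% exact binomial intervals. The 4 pDC libraries lie between 0.464 and 0.625 and the 2 Sirpa+ DC libraries at 0.202 and 0.213.

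Levels of different members are given here per kilobase of exon, which corrects for length alone. The strand that the counts stand for is uncertain, so the order below is one of counts per length. Bcl2a1b was scaled by its full length, though only 42.4% of its stretches of 50 bases occurred in no other Bcl2a1 transcript. Mcl1 was highest in each group, at 159 ± 7.77 CPM per kb (SD, n = 2) in Sirpa+ DCs, 121 ± 23.6 in YG+ pDCs and 81.6 ± 31.0 in PBS pDCs. In Sirpa+ DCs Bcl2a1b at 119 ± 28.8 CPM per kb, Cdkn1a at 96.4 ± 6.58 and Pmaip1 at 84.5 ± 1.23 came next, and the step from Bcl2a1b to Cdkn1a was within the spread of Bcl2a1b. With the longest single transcript as the length, Cdkn1a at 165 CPM per kb stood above Mcl1 there. In YG+ pDCs Pmaip1 followed at 57.6 ± 10.1 CPM per kb, then Bax, Bcl2a1b and Bcl2l11 at 28.8 ± 2.16, 28.0 ± 0.681 and 25.5 ± 2.59, which overlap within their spread. In PBS pDCs Bax, Pmaip1 and Bcl2l11 were 25.9 ± 3.42, 21.4 ± 10.5 and 19.5 ± 5.07 CPM per kb and likewise overlapped. Bcl2 was among the lowest in all groups, at 1.36 to 2.74 CPM per kb.

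In all, 4 of the 10 genes were lower in PBS pDCs than in Sirpa+ DCs and 0 were higher, where 6.89% of the 8141 genes tested were lower, 4.54% higher and 11.4% called in all. The same 4 members had an unadjusted p under 0.05, as did 24% of all genes. Libraries did not overlap for 7 members that were higher in Sirpa+ DCs (24.2% of all genes) and for 1, Bcl2l11, higher in PBS pDCs (22.9%). In a fit of only the 4 libraries compared, the calls of Pmaip1, Bcl2l1 and Bcl2a1b were lost (adjusted p = 0.0627, 0.0637 and 0.0642) and that of Cdkn1a was kept. The members' median log2 fold change was -0.90, against 0.08 over all genes tested. In YG+ pDCs against Sirpa+ DCs, 1 of 10 was lower and 0 higher, where 4.09% of all genes were lower, 3.07% higher and 7.16% called in all, so a single member is near the background. An unadjusted p under 0.05 was reached by 2 members and 22.8% of all genes. Libraries did not overlap for 6 members higher in Sirpa+ DCs (29.1% of all genes) and 1 higher in YG+ pDCs (32.8%). The median was -0.47 there, against 0.04 over all genes. The 3 comparisons share libraries, so their values are not independent of each other.

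Microsphere-carrying pDCs and PBS pDCs could not be told apart by the test at any of the 10 genes. The call rule took 0 of 10 members and 0% of all 8141 genes, with 2 members (Cdkn1a and Pmaip1) and 929 genes (11.4%) at an unadjusted p under 0.05, and DESeq2 called 0 members and 18 genes. The log2 fold change was above 0 for 9 of 10 members, with a median of 0.63 against 0.08 over all genes. Both YG+ pDC libraries were above both PBS pDC libraries for 6 members (Cdkn1a, Pmaip1, Mdm2, Bcl2l1, Mcl1 and Bcl2l11), where 26.5% of all genes showed this. For Bcl2l1 this order is uncertain, as the 0 in PBS pDC replicate 1 allows up to 19.1 CPM against 14.3 CPM in YG+ pDC replicate 2. It is also uncertain for Mcl1, Bcl2l11 and Mdm2, where the nearest YG+ and PBS pDC libraries were close. These were 358 and 354 CPM for Mcl1, 189.7 and 185 CPM for Bcl2l11, and 76.9 and 71.7 CPM for Mdm2. Without PBS pDC replicate 2, which leaves the shallow library alone in its group, Cdkn1a (adjusted p = 0.0202) and Pmaip1 (0.0376) passed. In that fit 870 genes passed, and without PBS pDC replicate 1 it was 0 members and 3 genes.

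**Figure D3:**
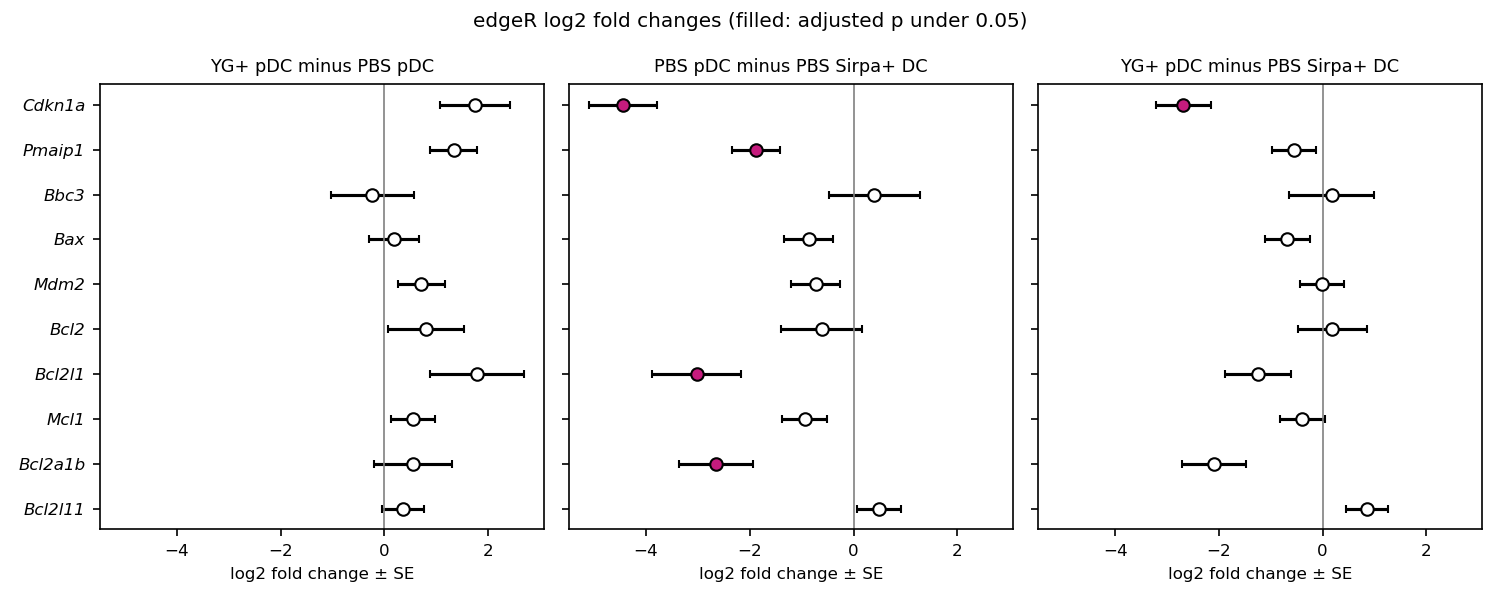
log2 fold change and its standard error (horizontal axis) of the 10 genes in the 3 comparisons named above the panels, with filled points where the adjusted p was under 0.05. The filled points are Cdkn1a, Pmaip1, Bcl2l1 and Bcl2a1b in PBS pDCs against Sirpa+ DCs and Cdkn1a in YG+ pDCs against Sirpa+ DCs.

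Other genes of these pathways were taken from 6 lists. Their counts stand beside shares over all genes tested, each against Sirpa+ DCs. These were 6.89% lower and 4.54% higher in PBS pDCs, and 4.09% lower and 3.07% higher in YG+ pDCs. With 1 or 2 calls in a direction among 10 to 16 genes, a list cannot be set apart from these shares. The regulators of Bcl2l11, Bbc3 and Bcl2a1 had the most calls in PBS pDCs, with 13.3% of the list higher and 13.3% lower. In YG+ pDCs 13.3% of that list were higher and 6.67% lower, and 20% of the other BCL2 family genes tested were lower. Of 30 other p53 target genes, 16 were tested, and 2 were lower in PBS pDCs than in Sirpa+ DCs and 0 higher, with a median log2 fold change of 0.07. Ddb2, a DNA damage recognition factor, was 82.9 and 23.1 CPM in PBS pDC libraries, 80.1 and 41.2 CPM in YG+ pDC libraries and 707 and 413 CPM in Sirpa+ DC libraries, and was lower in both pDC groups (-3.57 ± 0.65, adjusted p = 0.00615, in PBS pDCs and -3.18 ± 0.59, adjusted p = 0.0100, in YG+ pDCs). Exons of Acp2 on the opposite strand cover 23.8% of its exon length. Plk2, a stress-induced kinase, was 0 and 13.9 CPM in PBS pDC libraries and 50.8 and 118 CPM in Sirpa+ DC libraries (-3.15 ± 0.76, adjusted p = 0.0218), with 71.6 and 60.8 CPM in YG+ pDC libraries. Trp53inp1, a p53-induced nuclear protein gene, went the other way and was higher in YG+ pDCs, at 117 and 118 CPM, than in Sirpa+ DCs, at 38.1 and 27.9 CPM (1.86 ± 0.45, adjusted p = 0.0284). In PBS pDC libraries Trp53inp1 was 70.2 and 92.6 CPM, also above both Sirpa+ DC libraries, though the difference did not pass (1.37 ± 0.47, adjusted p = 0.0911). In YG+ pDCs against Sirpa+ DCs, then, 1 of the other p53 targets was higher and 1 lower. Leaving out single libraries ended the call of Plk2 in 1 of 6 cases, of Ddb2 in 1 of 6 for PBS pDCs and 3 of 6 for YG+ pDCs, and of Trp53inp1 in 4 of 6.

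Among p53 and its regulators, 10 of 14 genes were tested and 1 passed. The p53 relative Trp73 was 25.5 and 25.5 CPM in PBS pDC libraries, on 4 and 11 counts, and 0 in both Sirpa+ DC libraries. It was at least 6.27-fold higher if the Sirpa+ DC group is set at 3 counts in all (adjusted p = 0.0307, lost in 5 of 6 cases when a library was left out). This bound leaves out the counting error of the PBS pDC libraries. In YG+ pDC libraries Trp73 was 9.83 and 8.95 CPM, on 7 and 5 counts. Exons of the opposite strand cover 5.06% of the exon length of Trp73. Of 19 other BCL2 family genes, 10 were tested, and 1 was lower in PBS pDCs and 2 in YG+ pDCs than in Sirpa+ DCs. Bcl2a1a was 0 in both PBS pDC libraries and 84.6 and 47.8 CPM in Sirpa+ DC libraries. With the counting error of the Sirpa+ DC libraries left aside, it was at least 13.0-fold lower in PBS pDCs (adjusted p = 0.00644, lost without either Sirpa+ DC library). It was 12.6 and 8.95 CPM in YG+ pDC libraries, also lower (-2.53 ± 0.63, adjusted p = 0.0395, lost in 4 of 6 cases), and shares reads with Bcl2a1b as described above. Bcl2l14, a less studied family member, was 2.81 and 1.79 CPM in YG+ pDC libraries and 55.0 and 29.9 CPM in Sirpa+ DC libraries (-3.97 ± 0.86, adjusted p = 0.0195, lost in 4 of 6 cases), with 14.1% of its exon length under exons of the opposite strand. In PBS pDC libraries Bcl2l14 was 6.38 and 9.26 CPM, also under both Sirpa+ DC libraries (adjusted p = 0.119). The pore former gene Bak1 and the BH3-only genes Bid, Bad and Bmf were tested and passed in no comparison.

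Downstream of mitochondria, 16 of 20 genes for caspases, the apoptosome and their inhibitors (IAPs) were tested, with 2 lower in PBS pDCs, 1 lower in YG+ pDCs and 0 higher, each against Sirpa+ DCs. The executioner caspase gene Casp6 was 0 and 11.6 CPM in PBS pDC libraries and 84.6 and 67.8 CPM in Sirpa+ DC libraries (-3.19 ± 0.81, adjusted p = 0.0279). In YG+ pDC libraries Casp6 was 26.7 and 10.7 CPM (adjusted p = 0.0928 against Sirpa+ DCs). Htra2, a mitochondrial protease that binds IAPs, was 44.6 and 16.2 CPM in PBS pDC, 28.1 and 46.5 CPM in YG+ pDC and 186 and 151.5 CPM in Sirpa+ DC libraries, lower in PBS pDCs (-2.67 ± 0.57, adjusted p = 0.0133) and in YG+ pDCs (-2.17 ± 0.49, adjusted p = 0.0227). Opposite-strand exons of Aup1 and Loxl3 cover 43.7% of its exon length. Both calls in PBS pDCs were lost in 2 of 6 cases when a library was left out, and that of Htra2 in YG+ pDCs in 4 of 6.

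Of 17 CDK inhibitors and their G1 partners, 13 were tested and 1 passed. Cdkn2d, the p19 inhibitor of CDK4 and CDK6, was 134 and 99.5 CPM in PBS pDC libraries and 16.9 and 27.9 CPM in Sirpa+ DC libraries (2.27 ± 0.52, adjusted p = 0.0188), so that this inhibitor was higher where Cdkn1a was lower. The call was lost in 2 of 6 cases. In YG+ pDC libraries Cdkn2d was 49.2 and 78.7 CPM (adjusted p = 0.129 against Sirpa+ DCs). All 15 genes for regulators of Bcl2l11, Bbc3 and Bcl2a1 were tested, with 2 higher and 2 lower in PBS pDCs than in Sirpa+ DCs. The lower ones encode the NF-kB subunits Rel (185 and 248 CPM against 745 and 774 CPM, adjusted p = 0.0192) and Relb (51 and 109 CPM against 279 and 255 CPM, adjusted p = 0.0374), and the calls of both were lost in 4 of 6 cases. Relb was also lower in YG+ pDCs, at 81.5 and 91.3 CPM (adjusted p = 0.0458, lost in 4 of 6 cases). Rel was 494 and 431 CPM in YG+ pDCs and did not pass against Sirpa+ DCs (adjusted p = 0.319). The higher ones were Runx2 and Tcf4, transcription factors of the pDC lineage, in PBS pDCs (adjusted p = 0.00311 and 0.0109) and in YG+ pDCs (0.00574 and 0.0136). Exons of the opposite strand cover 5.87% of the exon length of Runx2. Leaving out a library ended the calls of Runx2 in 1 and 3 of 6 cases and of Tcf4 in 2 and 3. In YG+ against PBS pDCs 0 genes of the 6 lists passed, with 1 to 3 genes per list at an unadjusted p under 0.05.

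**Figure D4:**
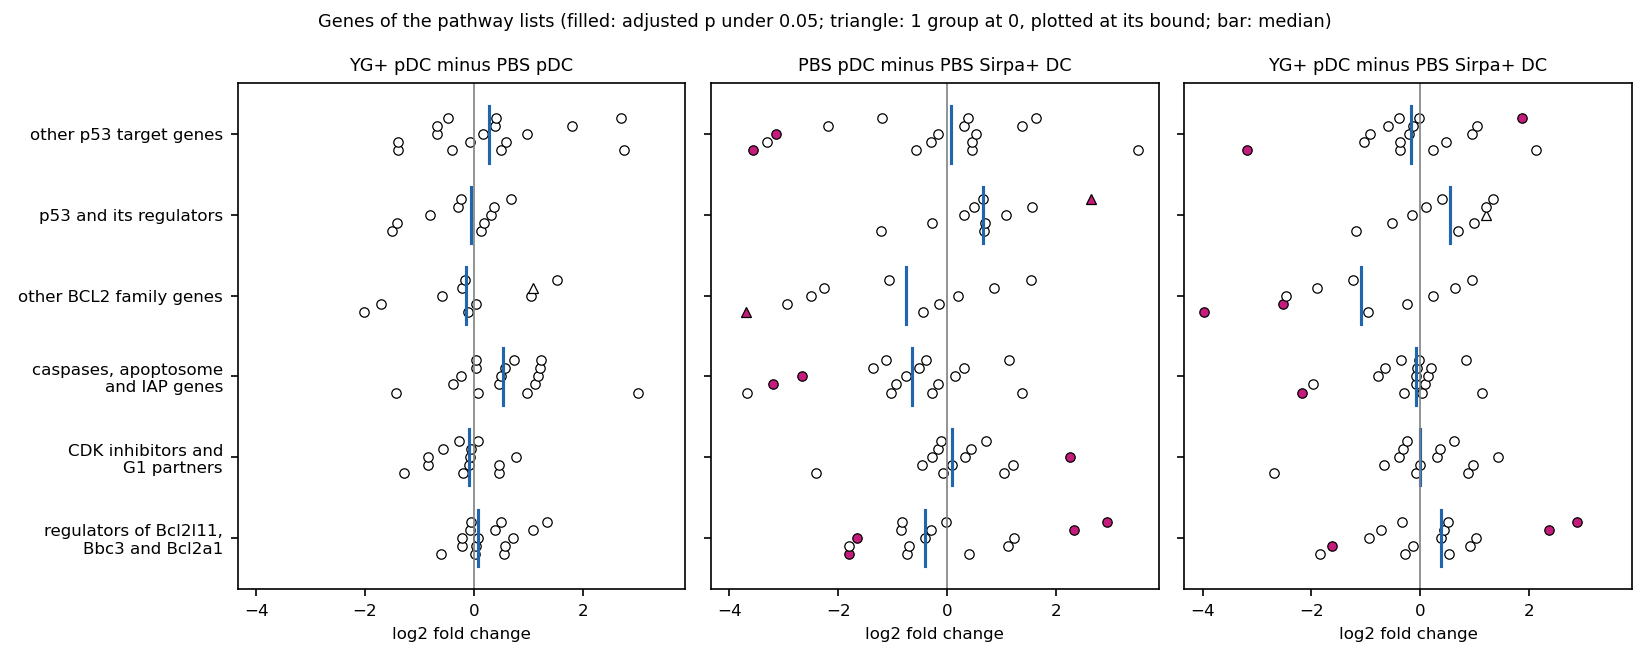
log2 fold change (horizontal axis) of each tested gene of the 6 pathway lists in the 3 comparisons, filled where the adjusted p was under 0.05, with a bar at each list's median and triangles at the bound for genes at 0 in a group. Filled points lie on both sides of 0 against Sirpa+ DCs, and none is filled in YG+ against PBS pDCs.

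The genes most like each called member were taken by the distance between log2 CPM profiles over the 6 libraries, each centred on its own mean. For Cdkn1a these were Fam129b (distance 0.69), Slc4a8 (0.82) and Mmp14 (0.85). Mmp14, a membrane-bound matrix protease gene, was 157 and 181 CPM in Sirpa+ DC libraries, 30.9 and 23.3 CPM in YG+ pDC libraries and 0 and 11.6 CPM in PBS pDC libraries. For Pmaip1 they were Pim1 (0.30), a survival kinase gene, Frrs1 (0.35) and Gdap10 (0.37). Pim1 was 449 and 447 CPM in Sirpa+ DC libraries, 292 and 211 CPM in YG+ pDC libraries and 70.2 and 134 CPM in PBS pDC libraries, the same order as Pmaip1 at higher levels. For Bcl2l1 they were Ralb (0.35), Tmem19 (0.36) and the growth factor gene Igf1 (0.43), and for Bcl2a1b Amz1 (0.55), Tmem109 (0.58) and Naaa (0.64). Like Bcl2l1 and Bcl2a1b, all of these genes had 0 counts in PBS pDC replicate 1, as had Cdkn1a and the genes nearest to it. Their closeness thus rests in part on the floor of that shallow library.

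Sums of markers of other cells also differed between the groups, and not all in the same order. Mature or migratory DC markers, of which 12 were detected in Sirpa+ DCs and YG+ pDCs and 10 of 12 in PBS pDCs (Il4i1 and Anxa3 at 0), summed to 5475 to 6360 CPM in Sirpa+ DC, 1598 to 2172 CPM in YG+ pDC and 909 to 950.3 CPM in PBS pDC libraries, the same order of groups as Cdkn1a and Pmaip1. Macrophage markers, 7 of 7 detected in Sirpa+ DCs and YG+ pDCs and 6 of 7 in PBS pDCs (Mertk at 0), summed to 3508 to 5792, 633 to 1528 and 176 to 351 CPM. Markers of cDC1, a further conventional subset, summed to 1796 to 1917 CPM in Sirpa+ DC, 723 to 739 CPM in YG+ pDC and 364 to 585 CPM in PBS pDC libraries, with 7, 7 and 6 of 7 detected (Batf3 at 0 in PBS pDCs). Those of cDC2 summed to 1561 to 2205, 1309 to 1324 and 816 to 1261 CPM, with Clec4a4 at 0 in both pDC groups, and those of pDCs to 1020 to 1186, 5678 to 7943 and 7513 to 8275 CPM, with Ly6d at 0 in Sirpa+ DCs. Epithelial markers, 5, 5 and 3 of 8 detected and Krt14, Foxn1 and Cldn4 at 0 in all groups, summed to 135 to 144, 28.6 to 33.7 and 6.38 to 18.5 CPM. Neutrophil markers, 2, 6 and 4 of 7 detected, summed to 4.23 to 14.0, 64.6 to 84.1 and 9.26 to 44.6 CPM, so that YG+ pDC libraries were the highest. The ribosomal RNA gene Rn45s took 12.7% and 10.6% of gene counts in YG+ pDC, 3.69% and 7.90% in PBS pDC and 7.05% and 9.39% in Sirpa+ DC libraries. Of 5 genes listed for RNA quality 0 passed in any comparison, with a median log2 fold change of 0.67 in YG+ against PBS pDCs, 0.05 in PBS pDCs against Sirpa+ DCs and 0.66 in YG+ pDCs against Sirpa+ DCs. Among 10 T cell and thymocyte markers, 7 were detected in Sirpa+ DCs, 7 in YG+ pDCs and 6 in PBS pDCs. Cd3g and Ptcra were at 0 in all groups, Themis in both pDC groups, and Cd3e in PBS pDCs and Sirpa+ DCs. The sum was 555 to 701 CPM in pDC and 161 CPM in both Sirpa+ DC libraries. The part of these cells and of RNA quality in the differences was not tested, and in sorted bulk RNA fewer cells of a type and less RNA per cell cannot be told apart.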

How the data were processed

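The deposited files, 1 per sample, list raw counts of reads by gene symbol that the authors had not normalised. Per the submitters' processing notes, bcl2fastq 2.17 and the mm10 build were used. The sources used here do not name the aligner, counter, annotation or strand setting. Per the labels' protocols, libraries were made from 5 ng of total RNA. Summary lines that name no gene made up 97.7% to 99.5% of records and were left out. Of 23420 symbols, 21740 (92.8%) matched 1 gene of GENCODE M21, which gave lengths and overlaps.

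The 8141 genes that passed filterByExpr were scaled with TMM (factors 0.924 to 1.09) and tested with edgeR 4.0.16 (glmQLFit, glmQLFTest) in R 4.3.3, in 1 fit of group means over all 6 libraries. Benjamini-Hochberg adjustment ran over all genes of a comparison, with calls at an adjusted p under 0.05. SE is the size of the log2 fold change over the square root of F. CPM used the tested genes' totals times these factors, and profile distances a prior count of 2. On simulated counts for YG+ against PBS pDCs (5 runs of 23420 genes) the fit called 3.59% of tested genes changed 2-fold, 40.8% at 4-fold and 79.9% at 8-fold.

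Members and lists were chosen with earlier results of these data known. Named genes were the members, up to 6 called genes per list, Trp53, the 3 nearest profiles and the gate genes. The result of 1 marker list is not reported here. Alternatives were DESeq2 1.42.0 and its size factors, no filter, a fit of the 4 libraries compared, each library left out, a replicate block and, for lengths, the longest transcript. Python 3.11.15, pandas 2.3.3 and scipy 1.17.1 were used.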

Additional observations from a re-analysis of the deposited data

How the results depend on the processing

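Of 328 alternative values for the 10 genes in 3 comparisons, 296 kept their direction and side of the threshold, 14 lost a call, 8 gained one and 10 changed sign. The causes were not tested. With no filter, 141 genes were called in YG+ against PBS pDCs (18 with DESeq2) and 1 pathway list gene, and in YG+ pDCs against Sirpa+ DCs 894 genes and 2 members. A fit of the 4 libraries compared called 580 genes and 1 member in PBS pDCs against Sirpa+ DCs, and 1480 genes, 2 members and 17 list genes in YG+ pDCs against Sirpa+ DCs. Leaving out 1 library gave 0 to 870 genes, 0 to 2 members and 0 to 5 list genes in YG+ against PBS pDCs, 214 to 1297 genes, 1 to 5 members and 1 to 15 list genes in PBS pDCs against Sirpa+ DCs, and 69 to 1487 genes, 0 to 2 members and 0 to 15 list genes in YG+ pDCs against Sirpa+ DCs. The lone library is then assumed to vary like the other groups.

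Sign changes when 1 library was left out concerned uncalled genes. In YG+ against PBS pDCs the log2 fold change then ran from -0.90 to 1.41 for Bbc3, -0.24 to 1.26 for Trp53 and -0.027 to 6.32 for Bcl2a1b, the last with PBS pDCs at 0. In PBS pDCs against Sirpa+ DCs it ran from -1.26 to 0.87 for Bbc3 and -0.57 to 0.94 for Trp53. In YG+ pDCs against Sirpa+ DCs it ran from -0.62 to 0.69 for Bbc3, -0.31 to 0.58 for Bcl2 and -0.47 to 0.31 for Mdm2, which was 0.028 with no filter. Deviations of same-numbered libraries correlated at -0.12, 0.30 and -0.10 across genes, in YG+ with PBS pDCs, PBS pDCs with Sirpa+ DCs and YG+ pDCs with Sirpa+ DCs. With 2 numbers a group no pairing was taken from them, and whether PBS libraries share mice is not known from these values. With a replicate block 0, 942 and 635 genes and 0, 4 and 1 members were called, and no member's call changed. Depth limits Bbc3, Bcl2 and Bcl2l1 most, at 34 counts or fewer in each library.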
